A study of Homo sapiens with 6 samples.

Results

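Transcripts of the insulin-like growth factor (IGF) receptors and the IGF binding proteins were examined in WM164, an established human melanoma cell line. The genes were chosen by name: the receptors IGF1R, INSR and IGF2R, the ligand IGF2, and the binding proteins IGFBP2, IGFBP3, IGFBP4, IGFBP5, IGFBP6 and IGFBP7. These 10 names match 11 of the 58870 rows of the count table, because IGF2 stands there under 2 identifiers. RNA sequencing covered 3 libraries from cells that overexpressed green fluorescent protein (GFP) and 3 from cells that overexpressed T-MGM, a fusion of MAFG and the melanoma isoform of MITF joined by a flexible linker. According to the study's methods, such constructs were delivered by lentivirus under the EF1α promoter and cells were selected with blasticidin. All cells grew in RPMI medium with fetal bovine serum. The labels do not say whether the 3 libraries of a group came from separate cultures, so p-values measure the spread between these libraries, which may be technical.

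Total counts were 35057239 to 38738065 in the GFP libraries, against 44577774 to 59250663 in those labelled T-MGM. MAFG, of the construct, had 2458 ± 70.3 normalized counts (counts divided by a size factor per library) in GFP against 2358 ± 34.9 in T-MGM, and MITF had 19161 ± 46.9 and 20269 ± 165 (SD, n = 3 each), so the construct transcripts do not check the labels. The melanocyte lineage was well represented, with 9 of 10 marker genes above 10 counts in at least 1 library and TYRP1 at 0 to 6 counts. Of the 10, 3 rose (SOX10, MITF and PMEL, by 0.05 to 0.11 on the log2 scale, though MITF and PMEL had lower TPM in every T-MGM library), 4 fell and 3 did not pass or had no adjusted p. DCT, a melanin synthesis enzyme, had 9472 to 10547 raw counts in GFP against 2198 to 2667 in T-MGM and fell by 2.49 on the log2 scale, and MLANA, TYR and S100B fell by 0.68, 0.35 and 0.21. The 10 markers together had summed normalized counts of 126114 to 127187 in GFP against 117283 to 120213 in T-MGM. PTPRC, which defines leukocytes, had 0 to 2 counts and KRT5, which defines basal keratinocytes, 0 to 3. The 6 leukocyte markers summed to 799.5 to 884 in GFP against 972 to 1192 in T-MGM. Most of that sum came from CD68 (637 to 1575 raw counts), which rose by 0.45 on the log2 scale, while LYZ (20 to 73) fell by 1.32. The 6 keratinocyte markers summed to 849 to 928 against 864 to 1020, mostly from KRT10 (703 to 1334 raw counts), which did not pass (DESeq2 adjusted p of 0.292).

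IGF1R and INSR are receptor tyrosine kinases that pass the signals of IGF1, IGF2 and insulin to the PI3K and AKT pathway. IGF2R, the cation-independent mannose 6-phosphate receptor, has no kinase: it carries lysosomal enzymes to lysosomes and removes IGF2 from the cell surface. The IGF binding proteins are secreted, bind IGFs with high affinity and either hold them away from IGF1R or release them after cleavage by proteases, except IGFBP7, which binds IGFs weakly. In melanoma cells IGF1R is known as a survival receptor that is active under MAPK pathway inhibition.

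The promoters of these genes were searched for the letters that MITF and small MAF proteins are known to bind, because the construct joins such factors. The windows were the 250 bases before the RefSeq transcript start (GRCh38.p14), for which 8 of the 10 genes had an entry and IGFBP2 had 3. Both strands were searched for CACGTG (E-box), CATGTG (M-box core), TGCTGANTC (part of the MAF recognition element), TGACNNNGC (antioxidant response element core) and TGANTCA (AP-1 site, whose letters overlap those of the MAF element). IGF2R is shown because its window alone among the 10 entries held any of these letters, and IGF1R, IGFBP5 and IGFBP6 because they are the genes whose counts rose. Capitals mark CACGTG, which is the same on both strands.
IGF2R, chr6:159968832-159969081, plus strand: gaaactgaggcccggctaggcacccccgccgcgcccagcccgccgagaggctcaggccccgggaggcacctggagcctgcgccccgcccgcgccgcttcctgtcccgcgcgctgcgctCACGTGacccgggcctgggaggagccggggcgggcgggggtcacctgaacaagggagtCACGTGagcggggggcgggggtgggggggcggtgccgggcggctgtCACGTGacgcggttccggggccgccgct
IGF1R, chr15:98648289-98648538, plus strand: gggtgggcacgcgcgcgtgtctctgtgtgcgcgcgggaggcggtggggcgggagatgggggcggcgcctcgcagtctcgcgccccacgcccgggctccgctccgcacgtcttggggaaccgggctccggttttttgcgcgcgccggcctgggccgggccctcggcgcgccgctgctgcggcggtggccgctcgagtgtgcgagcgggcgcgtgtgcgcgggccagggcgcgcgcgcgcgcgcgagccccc
IGFBP5, chr2:216695550-216695799, minus strand: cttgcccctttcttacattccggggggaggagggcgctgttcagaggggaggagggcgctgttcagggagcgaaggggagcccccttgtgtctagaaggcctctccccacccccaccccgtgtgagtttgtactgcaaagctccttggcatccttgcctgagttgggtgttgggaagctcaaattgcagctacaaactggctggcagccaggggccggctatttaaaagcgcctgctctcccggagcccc
IGFBP6, chr12:53097417-53097666, plus strand: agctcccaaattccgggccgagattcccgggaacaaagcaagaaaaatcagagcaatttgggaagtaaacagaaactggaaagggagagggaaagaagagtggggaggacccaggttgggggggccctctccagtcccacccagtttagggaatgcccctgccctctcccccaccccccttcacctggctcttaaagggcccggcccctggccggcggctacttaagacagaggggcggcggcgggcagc
In IGF2R the CACGTG copies lay at 132 to 127, 74 to 69 and 28 to 23 bases before the start. CACGTG was present in 6.3% of 35116 RefSeq promoter windows of the same length, and only 28 of them (0.08%) held at least 3 copies. CATGTG was present in 9.4%, TGCTGANTC in 0.9%, TGACNNNGC in 10.9% and TGANTCA in 6.6% of all windows. The IGF1R window was 81.2% G or C and that of IGF2R 79.2%, against 61.2% for both IGFBP5 and IGFBP6 and a median of 58.0% over all windows. A match is a description of the letters, and no binding was measured in these libraries.

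The receptors, the ligand and the binding proteins were compared between groups with DESeq2 over all genes. A gene counted as called when its Benjamini-Hochberg adjusted p was at or under 0.05 and its fold change was over 2. None of the 9 rows that received an adjusted p was called in either direction, where 4.63% of the 19135 genes tested were called (3.26% higher, 1.36% lower). Higher genes made up 70.5% of these calls, and 52.4 to 55.3% in limma on TPM. Without adjustment, 6 of them had p under 0.05 in DESeq2, as 43.7% of all genes tested did, and edgeR called 0 of the 7 it tested, where it called 5.17% of 15648 genes. On the adjusted p alone, 4 of the 9 passed, where 38.4% of all genes tested did (19.2% in each direction). IGF1R, IGFBP5 and IGFBP6 were higher and IGF2R was lower in the libraries labelled T-MGM, and edgeR passed 4 as well, where it passed 46.3% of all genes it tested. Normalized counts did not overlap between groups for these 4, where they did not overlap for 46.8% of all genes tested. The median log2 fold change of the 9 was 0.41, against -0.0027 for all genes tested, but the rows that passed the filter on low counts do not stand for all members. The counts of passing genes are thus near the share seen over all genes, and the description below concerns the single genes.

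**Figure D1:**
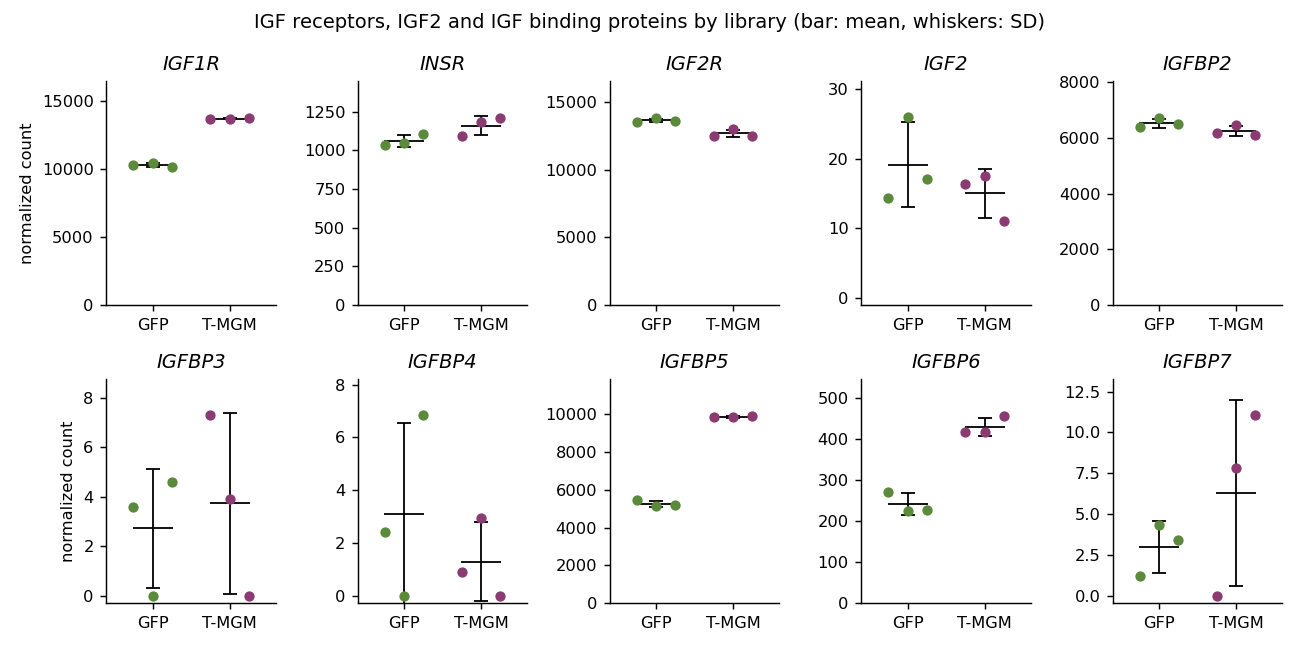
Normalized counts (y axis, linear, own range per panel) of the 10 genes in the 3 GFP (green) and 3 T-MGM (purple) libraries; each point is a library, the bar is the mean and the whiskers are the SD. IGF1R, IGFBP5 and IGFBP6 stand apart upwards and IGF2R downwards, while IGFBP3, IGFBP4 and IGFBP7 reached at most 11.1 normalized counts.

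Among the receptors, IGF1R (ENSG00000140443.14; chromosome 15, 98648539 to 98964530, GRCh38) had 10324, 10456 and 10158 normalized counts in the GFP libraries, against 13663, 13696 and 13724 in those labelled T-MGM. All 3 T-MGM libraries lay above all 3 GFP libraries, by far more than the spread within a group. In RNA from bulk cells, fewer cells that express a gene and less RNA of it per cell cannot be told apart. The log2 fold change was 0.41 (SE 0.02; DESeq2 adjusted p of 5.63e-106), a 1.33-fold rise with 95% limits of 1.29 and 1.36, well short of 2-fold. The deposited TPM values, which scale for transcript length, did not show this rise. They were 48.5, 46.4 and 35.4 in GFP against 45.1, 46.7 and 49.4 in T-MGM, and GFP replicate 3 alone lay below the others. The mean TPM was 1.08 times as high in T-MGM with all libraries and 0.991 times without GFP replicate 3. In limma on log2(TPM + 1) the IGF1R difference was 0.125 (adjusted p of 0.413), where the median of genes averaging at least 50 normalized counts lay at -0.131. The rise of IGF1R therefore depends on the unit.

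INSR (ENSG00000171105.14; chromosome 19, 7112255 to 7294414), the insulin receptor, had 1032, 1045 and 1102 normalized counts in GFP against 1094, 1180 and 1206 in T-MGM. The lowest T-MGM library lay under the highest GFP library. Its log2 fold change was 0.13 (SE 0.06; DESeq2 adjusted p of 0.0691), and it passed with TMM factors in DESeq2 (adjusted p of 0.0468), not in edgeR with TMM (adjusted p of 0.0564), and it passed without T-MGM replicate 1 (0.17, adjusted p of 0.0311). In TPM it had the opposite sign (-0.115 with a pseudocount of 1, limma adjusted p of 0.523). The count ratio of IGF1R to INSR, which needs no scaling between libraries, was 9.999, 10.007 and 9.216 in GFP against 12.5, 11.6 and 11.4 in T-MGM. The ratio was thus higher in every T-MGM library, by 1.21-fold on average (exact permutation test on log2 ratios, 2-sided p of 0.1, the smallest that 3 against 3 libraries allow). In TPM the same ratio was 13.9 ± 1.41 in GFP against 16.9 ± 2.03 in T-MGM (SD, n = 3 each), with an exact permutation p of 0.2.

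IGF2R (ENSG00000197081.13; chromosome 6, 159969082 to 160113507), whose promoter window holds the CACGTG copies shown above, had 13533, 13775 and 13609 normalized counts in GFP against 12513, 13000 and 12504 in T-MGM. It was lower in 3 of 3 T-MGM libraries. The log2 fold change was -0.11 (SE 0.02; DESeq2 adjusted p of 1.98e-07), a level 0.929 times that of GFP with 95% limits of 0.905 and 0.953. TPM gave the same direction, with 33.9, 33.7 and 34.0 in GFP against 27.0, 29.3 and 29.2 in T-MGM, and IGF2R passed the adjusted p in every alternative tried. The count ratio of IGF1R to IGF2R moved from 0.763, 0.759 and 0.746 to 1.09, 1.05 and 1.10. IGF1R reads were thus fewer than IGF2R reads in every GFP library and more numerous in every T-MGM library (1.43-fold; exact permutation p of 0.1, again the smallest possible). This change of order holds only for counts, which are not scaled for length. In TPM, IGF1R already stood above IGF2R in every GFP library (35.4 to 48.55 against 33.74 to 33.99). Of the 7 receptor relatives and mannose 6-phosphate genes with an adjusted p, 3 rose (LRP1, LRP2 and TMEM219), 2 fell and 2 did not pass. M6PR, the cation-dependent mannose 6-phosphate receptor, fell by 0.10 on the log2 scale (SE 0.03), at a DESeq2 adjusted p of 0.00298. GNPTAB, which makes the mannose 6-phosphate mark, fell by 0.12 on that scale (SE 0.03), at a DESeq2 adjusted p of 2.01e-05. NAGPA and GNPTG, which act on the same mark, had log2 fold changes of 0.21 (DESeq2 adjusted p of 0.0593) and 0.11 (DESeq2 adjusted p of 0.235).

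**Figure D2:**
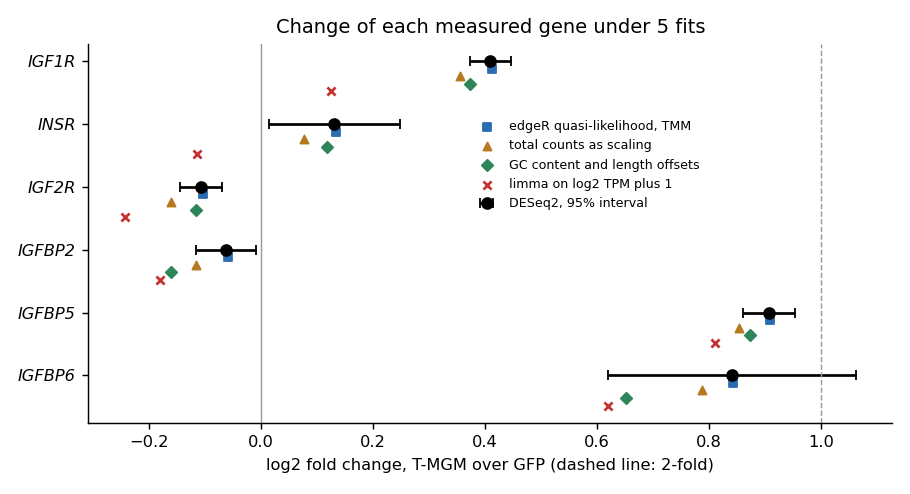
Log2 fold change, T-MGM over GFP (x axis), of the 6 genes that averaged at least 100 normalized counts (y axis) under 5 fits; black points and bars are DESeq2 with its 95% interval, and coloured marks are other fits. IGFBP5 and IGFBP6 stay right of 0.6 and left of the dashed 2-fold line in every fit, IGF1R drops to 0.125 in TPM, and INSR changes sign there.

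Ligand transcripts were scarce. IGF2 (ENSG00000167244.20; chromosome 11, 2129112 to 2158391) had 12, 24 and 15 raw counts in GFP against 18, 18 and 15 in T-MGM, and its second identifier had 0 in every library. The normalized counts overlapped (log2 fold change of IGF2 -0.37 with an SE of 0.50; DESeq2 adjusted p of 0.635; 95% limits of 0.393 and 1.53 in fold), so this depth could not show a difference. IGF1 had mean normalized counts of 1.88 in GFP against 0.304 in T-MGM, and INS had 0 in all libraries. H19, the noncoding RNA gene next to IGF2 in the same imprinted domain, was abundant in comparison. It had 3715, 3648 and 3765 normalized counts in GFP against 1752, 1646 and 1659 in T-MGM, so all T-MGM libraries lay far below all GFP libraries. Its log2 fold change was -1.14 (SE 0.04; DESeq2 adjusted p of 1.45e-197), and it was called under all 17 alternatives.

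Of the binding proteins, IGFBP5 (ENSG00000115461.5; chromosome 2, 216672105 to 216695549) changed most clearly. IGFBP5 is held in the extracellular matrix and can restrain or enhance IGF action depending on the tissue. It had 5448, 5161 and 5196 normalized counts in GFP, against 9846, 9851 and 9910 in the libraries labelled T-MGM. The groups were far apart, with a coefficient of variation of 2.97% among the GFP libraries and 0.36% among the T-MGM libraries. The log2 fold change was 0.91 (SE 0.02; the DESeq2 adjusted p was too small to be stored and is written as 0), a 1.87-fold rise with 95% limits of 1.81 and 1.94. The estimate lay under 2-fold, so the gene was not called despite the size of its statistic. The upper limit stayed under 2-fold as well. TPM rose likewise, from 27.0, 25.6 and 24.8 in GFP to 44.9, 43.6 and 49.8 in T-MGM.

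IGFBP6 (ENSG00000167779.9; chromosome 12, 53097436 to 53102345), which binds IGF2 in preference to IGF1, rose by a similar fold at a lower level. It had 272, 225 and 226 normalized counts in GFP against 418, 418 and 457 in T-MGM, with every T-MGM library above every GFP library. The log2 fold change was 0.84 (SE 0.11; DESeq2 adjusted p of 9.72e-13), and its 95% limits of 1.54 and 2.09 in fold included 2-fold. After correction for GC content and transcript length the IGFBP6 change was 0.65 (DESeq2 adjusted p of 6.41e-08). The count ratio of IGFBP5 to IGFBP6 was 21.97 ± 1.69 in GFP against 22.95 ± 1.09 in T-MGM (SD, n = 3 each), and this difference was within the spread (exact permutation p of 0.5). Fibroblast markers moved in the same direction: 4 of 8 passed upwards and 0 downwards, where 19.2% of all genes tested passed in each direction. Their summed normalized counts were 389.5 to 419 in GFP against 738 to 822 in T-MGM. Most of this sum came from LUM, with 259 to 277 raw counts in GFP against 513 to 745 in T-MGM, where the libraries were deeper. In TPM the groups overlapped for LUM (3.42 to 3.92 against 3.9 to 5.65). COL1A1 (16 to 82 raw counts), PDGFRA (32 to 211) and PDGFRB (2 to 58) also passed. In TPM the groups overlapped for COL1A1 and PDGFRB as well, but not for PDGFRA (0.24 to 0.28 against 0.59 to 0.94). DCN (4 to 10) and FAP (0 to 9) did not pass. COL1A2 had 0 to 5 counts and COL3A1 0 to 2 counts in any library. The part of the fibroblast markers in the rise of IGFBP5 and IGFBP6 was not tested.

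IGFBP2 (ENSG00000115457.10; chromosome 2, 216632828 to 216664436), a binding protein that many tumours secrete, lies tail to tail with IGFBP5, with 7668 bases between them. It had 6368, 6690 and 6472 normalized counts in GFP against 6169, 6452 and 6099 in T-MGM, and the groups overlapped. The log2 fold change was -0.06 (SE 0.03; DESeq2 adjusted p of 0.0544), with 95% limits of 0.923 and 0.994 in fold. The adjusted p was 0.0366 without GFP replicate 1 (-0.08), 0.00921 without T-MGM replicate 2 (-0.09), 0.000135 with total-count scaling (-0.12) and 1.14e-08 after GC content and length correction (-0.16). It was 0.0194 in limma on log2(TPM + 1), where IGFBP2 lay at -0.18. IGFBP2 passed in 7 of the 17 alternatives and not in the other 10. Among these were edgeR (0.0757), TMM factors (0.122), the replicate block (0.124) and omission of GFP replicate 2 (0.328). The median of genes averaging at least 50 normalized counts lay at -0.0631 with total-count scaling, -0.131 in that limma fit and 0.00122 after GC content and length correction. A decrease of this small size thus depends on the setting. The count ratio of IGFBP5 to IGFBP2 was 0.856, 0.771 and 0.803 in GFP against 1.596, 1.527 and 1.625 in T-MGM. The neighbours thus diverged in every library, by 1.96-fold (exact permutation p of 0.1, the smallest possible).

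The remaining binding proteins were at the limit of detection. IGFBP3, a main carrier of IGFs in serum, had 3, 0 and 4 raw counts in GFP against 8, 4 and 0 in T-MGM. IGFBP4, which is cleaved by the protease PAPP-A, had 2, 0 and 6 in GFP against 1, 3 and 0 in T-MGM. IGFBP7 had 1, 4 and 3 in GFP against 0, 8 and 15 in T-MGM, and its locus overlaps POLR2B, a gene with 37535 counts over the 6 libraries, on the opposite strand. The groups overlapped for each of these genes. DESeq2 gave IGFBP3 and IGFBP7 adjusted p-values of 0.858 and 0.531 and left that of IGFBP4 undefined, and a count of 3, taken as the floor of a library, corresponds to 0.0506 to 0.0856 CPM. Differences in these genes were not detectable at this depth.

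The level of the genes relative to each other was read from TPM, the only deposited unit that accounts for length. In GFP the order was IGFBP2 (136 ± 5.37), IGF1R (43.5 ± 7.06), IGF2R (33.9 ± 0.125), IGFBP5 (25.8 ± 1.09), IGFBP6 (6.44 ± 0.766) and INSR (3.15 ± 0.590; all TPM, SD, n = 3). No neighbours in this order overlapped in their library values. The other 4 genes, IGF2, IGFBP7, IGFBP4 and IGFBP3, had 0.0233 to 0.0833 mean TPM and overlapped with their neighbours. In T-MGM, IGFBP5 (46.1 ± 3.26) stood above IGF2R (28.5 ± 1.29) without overlap and could not be separated from IGF1R (47.1 ± 2.17). The ratio of IGFBP5 to IGF2R TPM was 0.763 ± 0.033 in GFP against 1.62 ± 0.114 in T-MGM (SD, n = 3 each; exact permutation p of 0.1).

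Within the binding proteins the composition shifted more than the total. Their summed TPM was 169 ± 3.79 in GFP against 177 ± 4.6 in T-MGM (SD, n = 3 each). IGFBP2 made up 80.8% ± 1.46 of that sum in GFP against 68.0% ± 2.23 in T-MGM, while IGFBP5 went from 15.3% ± 0.940 to 26.1% ± 2.24 and IGFBP6 from 3.82% ± 0.540 to 5.88% ± 0.240. The groups did not overlap in any of these shares, nor in the sum. IGFBP2 thus remained the most abundant binding protein transcript in all 6 libraries.

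**Figure D3:**
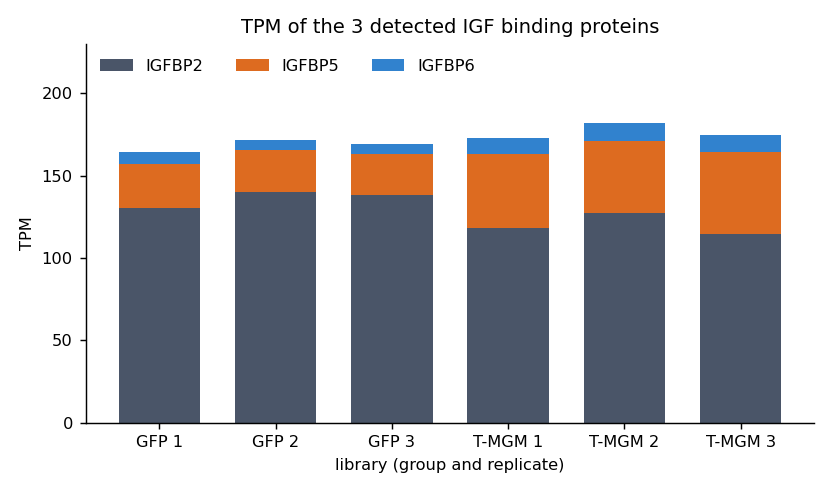
TPM (y axis, from 0) of IGFBP2, IGFBP5 and IGFBP6 stacked in each of the 6 libraries (x axis). The total lies near 169 in GFP against 177 in T-MGM, and the orange part, IGFBP5, grows from 24.8 to 27.0 TPM in GFP to 43.6 to 49.8 in T-MGM.

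The other genes of the IGF pathway were taken from 9 lists of 84 genes. Of these, 67 received an adjusted p. In DESeq2, 25 passed 0.05 upwards and 22 downwards, and 20 did not pass. The share past the adjusted p was thus 70.1%, where it was 38.4% of all genes tested (19.2% in each direction). These genes were mostly well expressed: among those averaging at least 50 normalized counts the share was 77% of 61, where it was 54% of 12652 genes overall. Called at 2-fold were 3 higher and 1 lower, the last being H19, or 5.97% where 4.63% of all genes were called. Their median log2 fold change was 0.01, near that of all genes tested.

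The called higher genes act outside the receptor core. STC1, a secreted glycoprotein that inhibits the IGFBP protease PAPP-A, had 2072, 1914 and 2088 normalized counts in GFP against 5045, 5159 and 5234 in T-MGM, without overlap. Its log2 fold change was 1.35 (SE 0.04; DESeq2 adjusted p written as 0). PAPPA itself had mean normalized counts of only 2.62 in GFP against 4.45 in T-MGM. CRIM1, a transmembrane protein with an IGFBP-like domain, had 1195 ± 118 normalized counts in GFP against 2464 ± 105 in T-MGM (SD, n = 3 each). The CRIM1 log2 fold change was 1.04 (SE 0.09; DESeq2 adjusted p of 2.57e-31), but it was under 2-fold without GFP replicate 2 (0.97), with total-count scaling (0.99) and in TPM (0.81 with a pseudocount of 1). LRP2, an endocytic receptor, rose from 20.9 ± 2.83 to 88.4 ± 6.71, by 2.08 on the log2 scale with an SE of 0.30 (DESeq2 adjusted p of 5.43e-11), but its TPM stayed under 1 and moved by only 0.29 as log2(TPM + 1). Its relative LRP1, known also to bind IGFBP3, had a DESeq2 log2 fold change of 0.59 (SE 0.06) and moved by 0.436 as log2(TPM + 1).

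Among proteases that release IGFs and their inhibitors, 3 rose, 1 fell and 3 did not pass. Beside STC1, MMP2, a gelatinase, rose by 0.94 on the log2 scale (SE 0.06), at a DESeq2 adjusted p of 1.19e-62. Among the relatives of the binding proteins 1 rose, 1 fell and 1 did not pass, and HTRA1, a serine protease that cleaves IGFBP5, went from 1215 ± 102 to 912 ± 57.5 normalized counts (SD, n = 3 each). It thus fell by 0.42 on the log2 scale (SE 0.07), at a DESeq2 adjusted p of 5.71e-09.

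Receptor inhibitors counted 4 higher, 2 lower and 2 that did not pass. ENPP1, a membrane enzyme that inhibits INSR, was the leading one, with 2638, 2579 and 2764 normalized counts in GFP against 5024, 4971 and 4886 in T-MGM. The ENPP1 log2 fold change was 0.90 (SE 0.03; DESeq2 adjusted p of 8.34e-165). GRB10, an adaptor that restrains both receptors, rose by 0.22 on the log2 scale (SE 0.04), but its TPM overlapped between groups (13.86 to 14.24 against 14.03 to 14.82). PTPN1, a phosphatase that acts on INSR, fell by 0.35 on the log2 scale (SE 0.02). Of the adaptors, 4 rose, 2 fell and 3 did not pass. IRS2, the docking protein that led this list, fell by 0.26 on the log2 scale (SE 0.03), with an adjusted p of 4.85e-17 in DESeq2. IRS1, its relative, rose by 0.14 (SE 0.05) with an adjusted p of 0.0258 in DESeq2, but its mean TPM was lower in T-MGM (2.87) than in GFP (2.97).

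Downstream, 6 of the 23 PI3K, AKT and mTOR genes passed upwards, 10 downwards and 7 not at all, with a median log2 fold change of -0.06. MTOR, the kinase at the centre of both mTOR complexes, had 9858, 9874 and 9794 normalized counts in GFP against 7411, 7383 and 7358 in T-MGM. Its log2 fold change was -0.41 (SE 0.02; DESeq2 adjusted p of 4.75e-89). PIK3R1, a regulatory subunit of PI3K, fell by 0.61 on the log2 scale (SE 0.05), and AKT1 rose by 0.27 (SE 0.03). Of the 4 FOXO factors, which AKT restrains, 1 rose, 2 fell and 1 did not pass. FOXO3 rose by 0.41 on the log2 scale (SE 0.04), with an adjusted p of 3.28e-21 in DESeq2, while FOXO1 fell by 0.25 (SE 0.06) and FOXO4 by 0.39 (SE 0.14). The IGF2 mRNA binding proteins and their regulators counted 3 higher and 1 lower, with log2 fold changes of -0.21 for IGF2BP3 (SE 0.03) and 0.37 for HMGA1, the leading gene (SE 0.03; DESeq2 adjusted p of 2.36e-41).

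**Figure D4:**
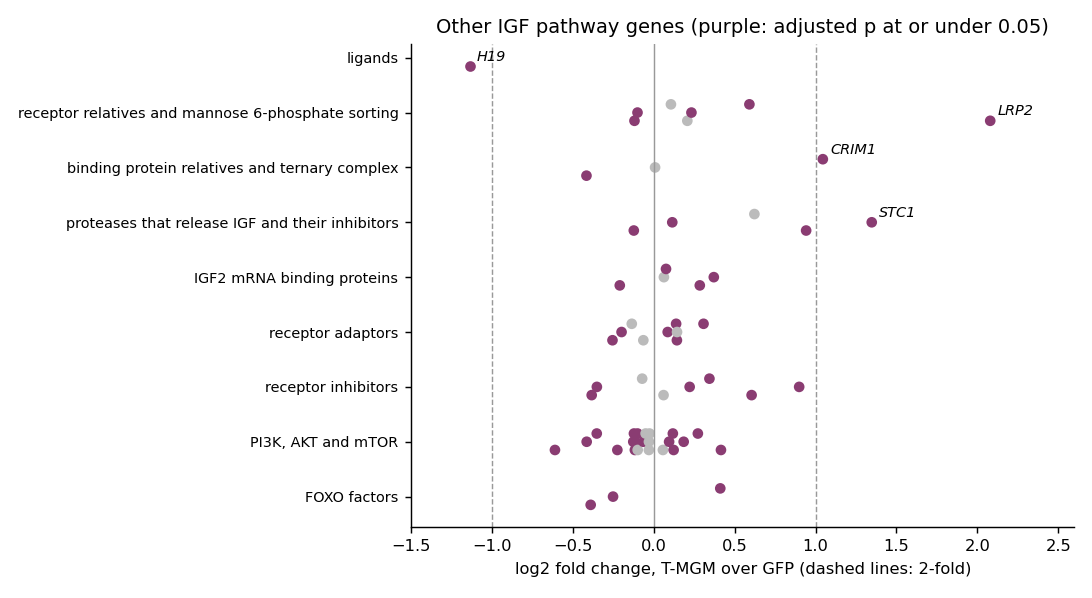
Log2 fold change, T-MGM over GFP (x axis), of 63 other IGF pathway genes with an adjusted p and on average at least 10 normalized counts, by list (y axis); each point is a gene, purple where the DESeq2 adjusted p was at or under 0.05 and grey otherwise. STC1, CRIM1 and LRP2 lie right of the upper 2-fold line at 1.35, 1.04 and 2.08, H19 lies left of the lower one at -1.14, and most genes lie between -0.5 and 0.5.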

How the data were processed

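The submitters' processing notes name cutadapt 1.8.1, STAR 2.7.7a, RSEM 1.3.0 and GRCh38. Per the study's methods, featureCounts assigned uniquely aligned reads to genes. The authors deposited raw counts, and that these are the featureCounts output is taken from the methods and was not checked. The authors also deposited TPM values, which were scaled for length and to a fixed sum per library. The annotation release is not given in the sources used here. The labels name an unstranded kit and the methods a stranded one, so counts of genes that overlap on opposite strands are uncertain.

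All genes were compared with DESeq2 1.42.0 in R 4.3.3 (group as the only term, 2-sided Wald test, Benjamini-Hochberg adjustment), the tool of the study's methods. Undefined adjusted p-values stayed undefined. Each fold change divides T-MGM by GFP. Genes said to rise or fall passed an adjusted p of 0.05, and "called" adds the 2-fold threshold. The floor of 3 counts covers counting error only. Positions and overlaps come from GENCODE 44 on GRCh38.

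The 17 alternatives were edgeR 4.0.16, TMM factors, total counts as scaling, a minimum of 10 counts in 3 libraries, DESeq2 without its independent filter, a block for the replicate number, omission of each of the 6 libraries, limma 3.58.1 on log2(TPM + 1) or log2(TPM + 0.1), which understates changes of low genes, with or without a minimum of 0.5 TPM, and lowess offsets (span 0.3) for GC content and length with or without the block. In counts simulated for 32338 genes, 200 of them changed, DESeq2 found 99.5% of the 200 and 9 unchanged genes. All planted changes were larger than 2-fold and lay in genes averaging at least 100 normalized counts. This share therefore does not apply to the smaller changes of the members or to members with few counts.

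The members, lists and tests were chosen with earlier results of these data known. Named genes are the 10 members and, from the pathway lists, every called gene and the gene with the largest Wald statistic of each list. Other pathway genes named were added after their values were seen.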

Additional observations from a re-analysis of the deposited data

How the results depend on the processing

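None of the IGF members was called at 2-fold under any of the 17 alternatives. The number past the adjusted p (4 in the DESeq2 fit used above) was 3 to 5 across them. IGFBP5 (0.81 to 0.93), IGFBP6 (0.62 to 0.93) and IGF2R (-0.25 to -0.096) kept their direction and passed in all of them, and IGF1R in all but the TPM fits, where it was 0.125, 0.127 and 0.125. INSR reversed in the TPM fits (-0.115, -0.148 and -0.115) and IGF2 in the TPM fit without a filter (0.0415), none of these past the threshold; the cause was not tested. TPM values are shares of a fixed sum that includes RN7SL1 at 13.4 to 13.8% in GFP and 15.8 to 16.1% in T-MGM. Their median log2 fold change was -0.131, -0.152 and -0.126, against -0.0097 in the DESeq2 fit used above. Over all genes that DESeq2 fit called 885 (70.5% of them higher), a count of this re-analysis and not of the study. The TPM fits called 133, 369 and 126 (52.6%, 55.3% and 52.4% higher). The adjusted p was passed by 7350 genes in that DESeq2 fit and by 4295 in TPM without a filter. Of the other pathway genes 4 were called in that DESeq2 fit and 2 in each of the 3 TPM fits, those being H19 and STC1. With the replicate number as a block, 4 members passed, 0 were called and 735 genes were called overall. Same-numbered libraries did not deviate together (correlations of -0.00665, -0.0579 and 0.0291 across 12654 genes). Pairs with different numbers reached 0.0916 and -0.089. With 3 libraries per group these values cannot decide whether same-numbered libraries were prepared together. Depth limits IGF2, IGFBP3, IGFBP4 and IGFBP7.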

Other observations

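The genes whose pattern over the 6 libraries lay nearest to that of IGFBP5 (Euclidean distance of centred log2 normalized counts, among 11652 genes with a mean of at least 100) were PRRX1 (0.0821), BNIP3 (0.104), ENPP1 (0.104), S100A13 (0.108) and MVP (0.110). PRRX1, a homeobox factor of mesenchymal cells, had mean normalized counts of 1264 in GFP and 2347 in T-MGM (log2 fold change 0.89; DESeq2 adjusted p of 1.65e-85). BNIP3, a mitophagy receptor induced by hypoxia, had 4788 and 8879 (0.89; DESeq2 adjusted p of 1.25e-257). Likeness here is set mostly by a shared difference between the groups.

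Genes near the members did not all move with them. Within 1 Mb of IGFBP5, 9 genes averaging at least 50 normalized counts had a median log2 fold change of -0.20 and a highest of 0.10, so that IGFBP5 (0.91) stood outside their range. Within 1 Mb of IGF1R, 6 genes had a median of 0.33, and the 23 genes within 5 Mb had -0.04. Among the former, ARRDC4 rose by 0.44 on the log2 scale (SE 0.05), with an adjusted p of 1.49e-20 in DESeq2, and SYNM, which encodes the intermediate filament protein synemin, went from 109 ± 25.9 normalized counts up to 774 ± 14.7 (SD, n = 3 each), a DESeq2 log2 change of 2.83 with an SE of 0.12 and an adjusted p of 1.52e-117. Both were singled out after their values were seen. The neighbours of IGFBP6 (29 genes) had a median of 0.09 and those of IGF2R (8 genes) of -0.04 within 1 Mb.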
